A study of Homo sapiens with 18 samples.

Results

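The 10 genes described here encode the enzymes that hydroxylate and crosslink collagen. They are the lysyl oxidases LOX, LOXL1, LOXL2, LOXL3 and LOXL4, the lysyl hydroxylases PLOD1, PLOD2 and PLOD3, and the prolyl 4-hydroxylase alpha subunits P4HA1 and P4HA2. They were taken by symbol from a table of normalized RNA sequencing counts, in which all 10 were found among 35933 genes with values. RNA of 3 MCF10 breast epithelial cell lines was sequenced in 18 libraries, 3 per group, named a, b and c. MCF10A is a spontaneously immortalized line that forms no tumours, MCF10AT1 is MCF10A with a stably integrated mutated HRas, and MCF10CA1h came from MCF10AT1 cells passed repeatedly through mouse xenografts and forms tumours. The labels call the genotypes Control Negative CRISPR and METTL3 CRISPR knockdown. In each line a clone selected after CRISPR with a guide to exon 1 of METTL3, the RNA methyltransferase that makes m6A, was compared with cells that had received a control guide, so every group had been transfected and sorted. A group is a single selected line. Differences between clones are therefore not part of the spread between its libraries, nor is it stated that the replicates were separate cultures, so p-values measure the spread between these libraries only.

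Collagen chains are hydroxylated in the endoplasmic reticulum before they fold. Prolyl 4-hydroxylase, a tetramer of alpha subunits and the beta subunit P4HB, makes the hydroxyproline that keeps the triple helix stable, and the lysyl hydroxylases make the hydroxylysine that carries sugars and strengthens crosslinks. Outside the cell, lysyl oxidases use copper to turn lysines of collagen and elastin into aldehydes that react with each other to form the crosslinks. LOX, LOXL2, PLOD2, P4HA1 and P4HA2 are known targets of hypoxia signalling, and stiffening of the matrix by these enzymes is known from the study of breast tumours.

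For 4 of these genes a reference promoter window, 250 bases before to 50 bases after a start site that RefSeq lists, is shown because LOX is known as a hypoxia target and PLOD1, PLOD2 and P4HA2 were the hydroxylases with the largest changes or the largest difference between lines described below. Sequences are from RefSeq (GRCh38.p14), which gave a window for 9 of the 10 genes and none for LOXL2. They lie at chr5:122078210-122078509 (LOX, minus strand), chr1:11934467-11934766 (PLOD1, plus strand), chr3:146161135-146161434 (PLOD2, minus strand) and chr5:132227042-132227341 (P4HA2, minus strand). The outermost start in GENCODE v44 lies upstream of the PLOD1, PLOD2 and P4HA2 windows, which for P4HA2 is well inside the gene as GENCODE spans it, so a window stands for 1 start and not for every promoter of its gene. Capitals mark ACGTG and GCGTG, the letters at the core of the element bound by the hypoxia-inducible factors, on either strand (CACGT and CACGC are their reverse complements).
LOX: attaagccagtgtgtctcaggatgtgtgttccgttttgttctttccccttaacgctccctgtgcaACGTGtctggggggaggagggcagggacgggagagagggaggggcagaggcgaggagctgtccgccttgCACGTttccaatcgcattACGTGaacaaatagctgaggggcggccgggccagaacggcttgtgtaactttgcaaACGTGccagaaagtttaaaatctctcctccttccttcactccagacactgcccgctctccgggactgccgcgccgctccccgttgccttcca
PLOD1: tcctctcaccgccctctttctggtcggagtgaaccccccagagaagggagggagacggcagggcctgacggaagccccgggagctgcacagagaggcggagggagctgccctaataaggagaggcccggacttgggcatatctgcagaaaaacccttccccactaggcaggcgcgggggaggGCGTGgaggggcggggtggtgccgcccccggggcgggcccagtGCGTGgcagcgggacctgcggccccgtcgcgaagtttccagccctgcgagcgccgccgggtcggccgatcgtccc
PLOD2: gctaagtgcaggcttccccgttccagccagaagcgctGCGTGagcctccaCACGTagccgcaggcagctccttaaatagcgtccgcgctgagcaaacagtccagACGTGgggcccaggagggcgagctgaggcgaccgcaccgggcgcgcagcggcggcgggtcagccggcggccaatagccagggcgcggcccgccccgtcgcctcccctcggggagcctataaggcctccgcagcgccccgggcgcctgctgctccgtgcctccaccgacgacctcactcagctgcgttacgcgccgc
P4HA2: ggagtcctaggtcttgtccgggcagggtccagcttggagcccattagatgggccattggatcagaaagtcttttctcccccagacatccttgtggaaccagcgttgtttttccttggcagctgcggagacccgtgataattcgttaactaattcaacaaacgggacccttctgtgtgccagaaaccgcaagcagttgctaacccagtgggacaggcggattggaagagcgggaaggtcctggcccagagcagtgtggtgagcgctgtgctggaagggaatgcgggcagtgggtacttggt
The LOX window held ACGTG 4 times and the PLOD2 window 2 times, and P4HA1 held it 1 time. GCGTG stood 2 times in the PLOD1 window and 1 time in the PLOD2 window. At least 1 of these words was found in 4 of the 9 windows, while 48.4% of all 35116 promoter windows of the same length held at least 1 of them (ACGTG 21.4%, GCGTG 36.5%). No match stood in the windows of LOXL1, LOXL3, LOXL4, PLOD3 and P4HA2. The word TATAAA was found in 1 window (P4HA1) and CAGGTG in 1 (LOXL4), against 11.5% and 20.6% of the same 35116 windows. These counts describe letters in the reference and say nothing of binding in these cells.

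METTL3, the targeted gene, was at 128% of its control in MCF10A (adjusted p = 0.618), 88.5% in MCF10AT1 (0.707) and 70.8% in MCF10CA1h (0.0234, limma with Benjamini-Hochberg adjustment). The RNA of METTL3 passed the test in the MCF10CA1h clone, while the difference of its change from that in MCF10AT1 or MCF10A did not (adjusted p = 0.564 and 0.2). METTL3 shares exon sequence with TOX4 on the opposite strand, whose mean level was 179% of its own. The strand setting of the counting is not given in the sources used here, so the values of METTL3 are uncertain. An edit in exon 1 can leave the RNA in place and RNA does not measure the protein. The METTL3 values thus check the labels little, and the clones are called labelled knockdown throughout. Library sums of the normalized counts were between 21347352 and 31681834, and the number of reads behind a value is unknown. Libraries of a group differed by a root mean square of 0.595 to 1.58 on the log2 scale, and the greatest difference was between replicates b and c of the MCF10AT1 control. All 12 basal breast epithelial markers looked at had a mean of at least 10 normalized counts in every group. Of markers of other cells, PTPRC and CD3E (immune) and PDGFRA and COL1A2 (fibroblast) stayed under a mean of 10 in every group, but others of the same lists did not, with group means of up to 2075 for CD14, 146 for CSF1R, 3088 for DCN, 2040.0 for THY1 and 466 for FAP. Among endothelial markers, PECAM1 had group means of up to 517 (MCF10AT1 control). In bulk RNA, fewer cells of a kind and less RNA per cell cannot be told apart.

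The levels of the 10 genes were compared first in the control libraries. Since normalized counts grow with transcript length, they were divided by the length of the reference transcript for any comparison between genes (normalized count per kilobase, mean ± SD, n = 3). PLOD1 had the highest level in MCF10A (1599.7 ± 186 per kilobase) and in MCF10AT1 (2126 ± 634), and PLOD3 in MCF10CA1h (1332 ± 49.0, beside 1227 ± 101 for PLOD1). The third lysyl hydroxylase, PLOD2, which acts on the telopeptides at the chain ends, stood at 178 ± 30.4, 112 ± 82.8 and 144 ± 19.9 per kilobase in MCF10A, MCF10AT1 and MCF10CA1h. Per kilobase, P4HA1 was above P4HA2 in each of the 9 control libraries, but this order depends on the length, since without that division P4HA2 held 59.4% ± 1.31 of their sum in the MCF10CA1h control. P4HA2 made up 37.2% ± 7.75 of the sum of both in the MCF10A control, 33.5% ± 13.8 in that of MCF10AT1 and 46.9% ± 1.36 in that of MCF10CA1h. Among lysyl oxidases LOX led in MCF10A (354 ± 64.4 per kilobase) and in MCF10CA1h (199 ± 31.5), and LOXL1 in MCF10AT1 (344 ± 146). LOXL3 was below LOX, LOXL1 and LOXL2 in every line. It held 0.866% of the lysyl oxidase total per kilobase in the MCF10A control and 3.64% in that of MCF10AT1. In the MCF10CA1h control it held 9.70%, beside 19.6% for LOXL2. LOXL4 had at most 7.09 normalized counts in any library, below the filter for testing.

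**Figure D1:**
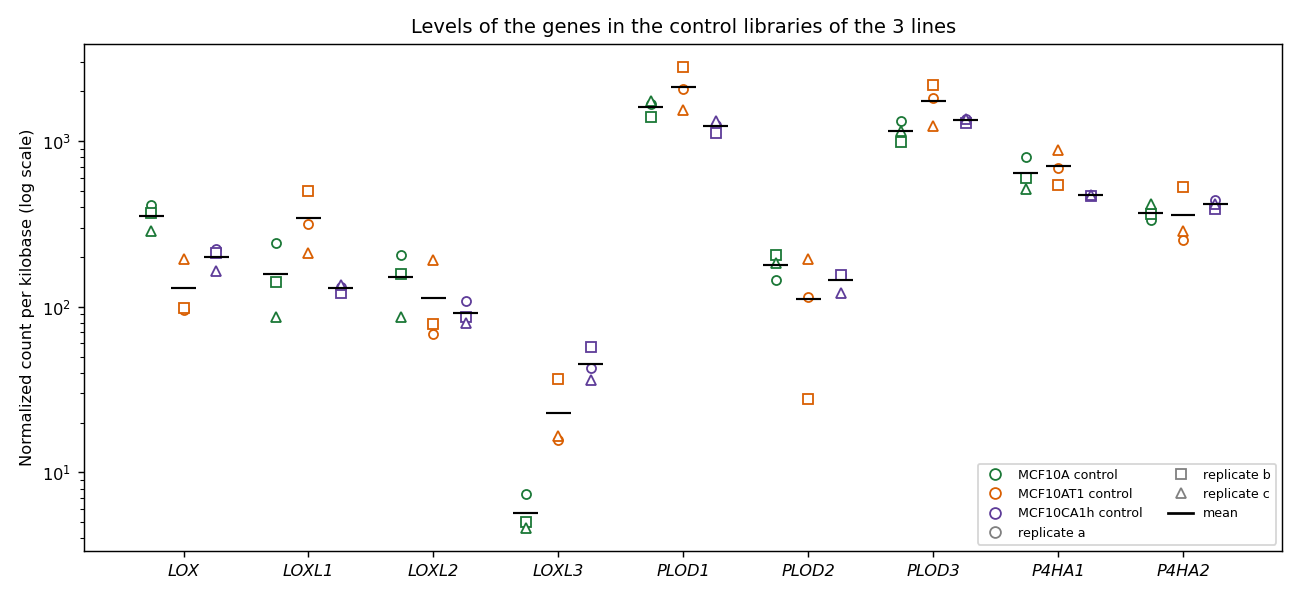
Normalized count per kilobase of reference transcript, on a log axis, in the 9 control libraries (open symbols, shape by replicate, colour by line) with the mean of each group as a bar. LOXL4, which had values of 0, is left out. PLOD1 and PLOD3 had the highest levels in all 3 lines, and LOXL3 was lowest and differed most between lines.

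Between control lines, LOX and LOXL3 passed the test against MCF10A. LOX, the founding member of the family, at chr5:122063195-122078413 (gene coordinates are hg38, GENCODE v44), had 2092, 1859.5 and 1446 normalized counts in MCF10A control replicates a, b and c. The counts of LOX were 487, 500.5 and 989 in the MCF10AT1 and 1134, 1071 and 831 in the MCF10CA1h control. Every MCF10A control library was thus above every control library of the other lines. LOX was lower in MCF10AT1 than in MCF10A (log2 difference -1.51, standard error 0.30, adjusted p = 0.00787), and the lower mean in MCF10CA1h missed the threshold (-0.83, adjusted p = 0.0518). LOXL3, at chr2:74532258-74555690, had 27.2, 18.5 and 17.1 normalized counts in MCF10A, 57.7, 134 and 61.1 in MCF10AT1 and 156, 211 and 134 in MCF10CA1h. Its values in the MCF10A control lay below those of all control libraries of the other lines. The share of all tested genes separated like LOX or LOXL3 is not given here, so these separations are descriptions. The log2 difference from MCF10A was 1.88, standard error 0.40, adjusted p = 0.0108 in MCF10AT1 and 2.94, standard error 0.40, adjusted p = 0.000816 in MCF10CA1h. LOXL3 shares exon sequence with HTRA2 and DOK1 on the opposite strand, whose mean levels were 968% and 110% of its own. In the MCF10AT1 control DOK1 was also higher than in MCF10A (log2 difference 1.32, adjusted p = 0.0288, limma). HTRA2 differed there by 0.69 (adjusted p = 0.126). In the MCF10CA1h control the differences were 0.40 for DOK1 (adjusted p = 0.422) and -0.03 for HTRA2 (0.958). The strand setting of the counting is not given in the sources used here, so the values of LOXL3 are uncertain.

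LOXL1, at chr15:73925989-73952137, which is known for its role in elastic fibres, had 745, 1177 and 498 normalized counts in the MCF10AT1 control and 309, 282 and 316 in the MCF10CA1h control. It was lower in MCF10CA1h than in MCF10AT1 (log2 difference -1.33, standard error 0.40, adjusted p = 0.0418), and so was PLOD1 (-0.75, standard error 0.23, adjusted p = 0.042). Over the 6 libraries left out in turn, the adjusted p was 0.0122 to 0.125 for LOXL1 and 0.00456 to 0.148 for PLOD1, and both calls stayed only without MCF10AT1 control replicate c. In the 3 comparisons of controls, 2, 1 and 2 of the 9 tested genes passed the test (MCF10AT1 against MCF10A, MCF10CA1h against MCF10A and MCF10CA1h against MCF10AT1), where 28.1%, 37.8% and 21.8% of all tested genes did. Without MCF10AT1 control replicate c these counts became 7 for MCF10AT1 against MCF10A and 4 for MCF10CA1h against MCF10AT1, and the shares of all tested genes rose too, to 52.1% and 35.8%. The comparisons share control libraries.

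In the MCF10A clone none of the 9 tested genes passed the test, where 2.65% of all tested genes did (limma, adjusted p under 0.05). At an unadjusted p under 0.05 stood 3 of the 9, LOX, LOXL2 and PLOD1, where 18.4% of all genes did. LOXL2, which is known to act on collagen type IV, had 767, 585 and 325 normalized counts in control replicates a, b and c and 149, 412 and 149.5 in the labelled knockdown. The groups overlapped, with replicate b of the clone above replicate c of the control. The log2 change of LOXL2 was -1.32, 95% interval -2.37 to -0.28, adjusted p = 0.175. With the replicate letter as a block, its adjusted p was 0.0514. PLOD1, at chr1:11934205-11975538, had 4967, 4135 and 5179.9 in the control and 3197, 3647 and 3221 in the labelled knockdown. Each library of the clone was below each control library. Groups did not overlap, in either direction, for 23.9% of all tested genes and for PLOD1 alone among the 9. Its log2 change was -0.50, 95% interval -0.84 to -0.16, adjusted p = 0.121. LOX had 1967, 2682 and 3173 in the clone (log2 change 0.52, 95% interval 0.02 to 1.02, adjusted p = 0.247), and the values of the 6 libraries overlapped.

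The other 6 genes tested in MCF10A had log2 changes between -0.26 (LOXL1) and -0.05 (P4HA1), with adjusted p from 0.598 to 0.933. LOXL1 had 572, 329.9 and 202 in the control and 312, 253 and 283 in the clone, so that control replicates a and c enclosed the whole clone. P4HA1, the alpha subunit found most widely, had 2199.9, 1647 and 1412 and 1475, 1849 and 1706, and P4HA2 had 1509, 1639 and 1896 and 1641, 1298 and 1498. In both subunits the groups overlapped. PLOD2 had 545, 769 and 692 in the control and 456, 654 and 632 in the clone, a log2 change whose 95% interval was -0.69 to 0.28. The median log2 change of the 9 genes was -0.21, beside -0.0035 for all genes tested. Of 11 other tested genes for collagen modification and folding, FKBP10, a prolyl isomerase that assists PLOD2, fell (log2 change -2.60, adjusted p = 0.0173), and none rose. With the replicate letter as a block, a fit in which 7.6% of all genes passed, 2 of these 11 did. COL16A1 rose (log2 change 3.47, adjusted p = 0.029) among 11 collagen and elastic fibre genes, none of which fell, and 4 passed with the block. None of 8 processing and scaffold genes and none of 20 hypoxia targets passed, with 1 and 2 passing under the block. Of 12 epithelial markers KRT5 rose (0.90, adjusted p = 0.0455) and none fell, 5 passing with the block, and their sum was 459180.0 to 834820.0 in the controls and 451228 to 493062 in the clone. None of 3 tested fibroblast, 3 endothelial and 3 immune markers passed (1, 1 and 0 with the block), and the fibroblast sums were 1782 to 2176 and 1465 to 4423.

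**Figure D2:**
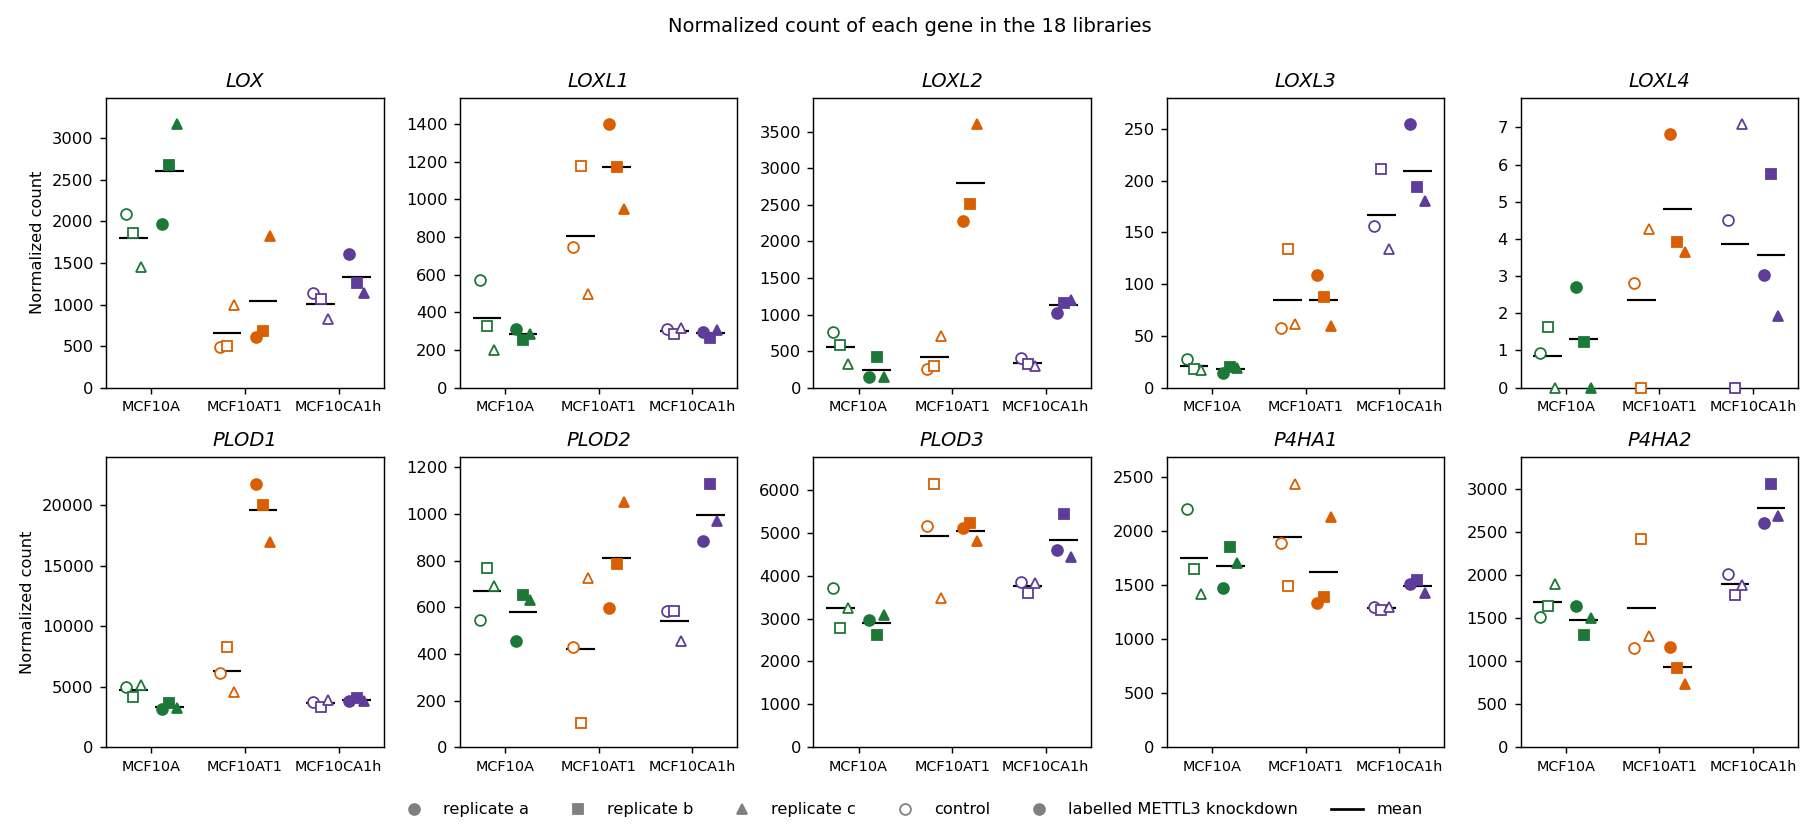
Normalized count of each gene (linear axis from 0, scale differs between panels) in the 18 libraries, by line, with open symbols for controls, filled symbols for the labelled knockdown, shape by replicate and the group mean as a bar. In MCF10AT1 the filled LOXL2 and PLOD1 symbols lie above all open ones, and in MCF10CA1h those of 6 genes do (LOX, LOXL2, PLOD2, PLOD3, P4HA1 and P4HA2).

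In the MCF10AT1 clone LOXL2 and PLOD1 rose, and none of the 9 tested genes fell. These were 2 of the 9 tested genes, where 13% of all tested genes passed, 7.07% as higher. LOXL2, at chr8:23296897-23425328, had 254, 292 and 709 normalized counts in control replicates a, b and c and 2283, 2511 and 3608 in the labelled knockdown. All 3 libraries of the clone were above all controls by more than the spread within either group. The means were 418 ± 252 and 2800.4 ± 708 (SD, n = 3), and LOXL2 rose by a log2 change of 2.87, 95% interval 1.90 to 3.84, adjusted p = 0.00319. With each of the 6 libraries left out in turn, the log2 change was between 2.59 and 3.33 and the call stayed. LOXL2 shares exon sequence with ENTPD4 on the same strand, whose log2 change was 0.06 (adjusted p = 0.953).

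PLOD1, which hydroxylates lysines of the triple helix, had 6103, 8315 and 4564 in the MCF10AT1 control and 21794, 20012 and 16987 in the labelled knockdown. Again the groups did not overlap, the lowest library of the clone (replicate c) being above the highest control (replicate b). The means were 6327 ± 1885 and 19598 ± 2430.2 (SD, n = 3) and the log2 change was 1.67, 95% interval 0.97 to 2.36, adjusted p = 0.00868. Without control replicate a the adjusted p of PLOD1 was 0.0509, and without replicate b of the clone it was 0.0552, with log2 changes of 1.66 and 1.65. These 2 genes were also those of the 9 whose groups did not overlap, where 32.8% of all tested genes did not.

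PLOD2, at chr3:146035139-146163725, had 429, 104 and 725 in the MCF10AT1 control and 598, 788 and 1051 in the clone. Control replicate b was far below all other libraries, and control replicate c was above replicate a of the clone. The log2 change was 1.31, 95% interval -0.19 to 2.80, adjusted p = 0.238, and with the replicate letter as a block the adjusted p was 0.0438, so PLOD2 passed with the block. With the block 3 of the 9 genes and 24.5% of all tested genes passed. Left-out libraries moved the log2 change of PLOD2 between 0.50 and 1.90, and the lowest came without control replicate b. P4HA2, at chr5:132190147-132295315, had 1156, 2413 and 1294 in the control and 1163, 915 and 731 in the clone, with replicate a of the clone just above replicate a of the control (log2 change -0.74, 95% interval -1.55 to 0.08, adjusted p = 0.221).

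For LOX, whose counts were 605, 687 and 1824 in the clone, the log2 change in MCF10AT1 was 0.55 with a 95% interval of -0.56 to 1.66. That of LOXL1, with 1400.1, 1174 and 948 in the clone, was 0.61 (-0.22 to 1.44). LOXL3, PLOD3 and P4HA1 had log2 changes of 0.08, 0.07 and -0.27, with adjusted p of 0.936, 0.898 and 0.621. P4HA1 had 1890.0, 1489.8 and 2436 in the control and 1336, 1387 and 2127 in the clone, where replicate c was the highest of each group and the groups overlapped. PLOD3, the family member that also adds glucose to collagen, had 5147, 6146 and 3484 in the control and 5104, 5231 and 4807 in the clone. Its clone values lay within the range of the control. The median log2 change of the 9 genes was 0.55, beside 0.021 for all genes tested.

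**Figure D3:**
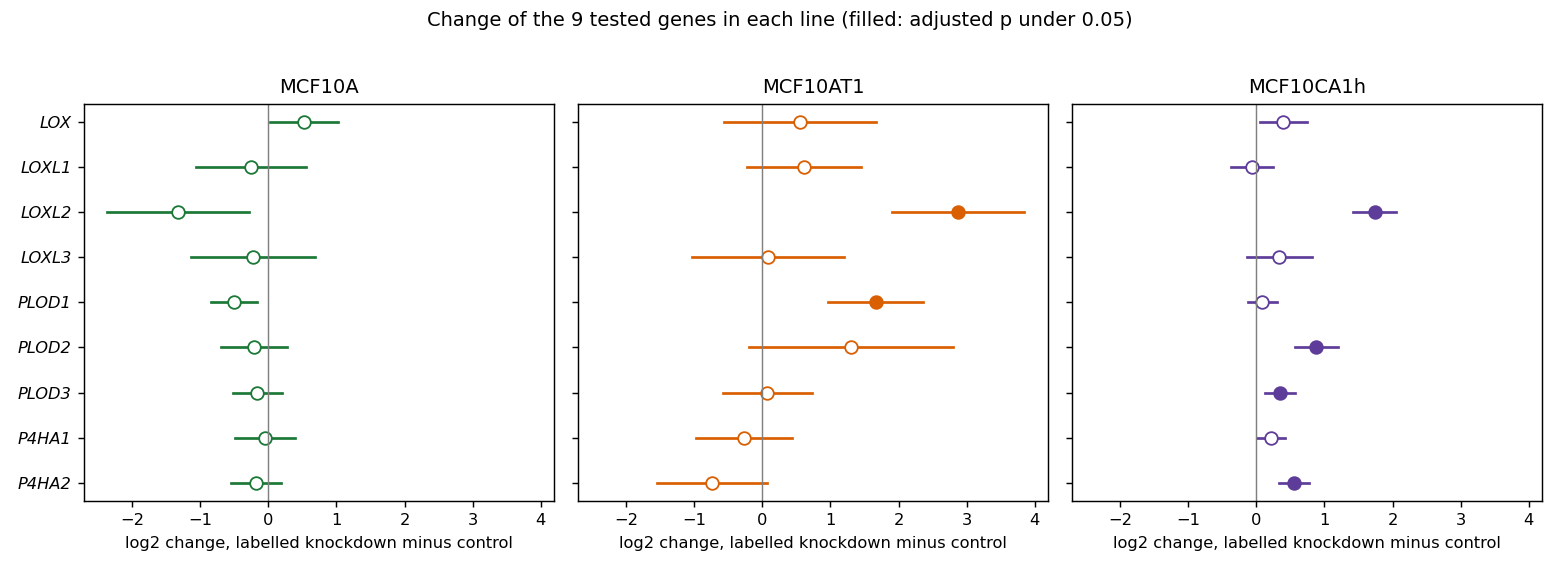
Log2 change of the 9 tested genes (labelled knockdown minus control) with its 95% interval from limma, in each line. Filled points had an adjusted p under 0.05. LOXL2 lay at -1.32 in MCF10A without passing the test, at 2.87 in MCF10AT1 and at 1.74 in MCF10CA1h.

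Other genes of the pathway moved in the MCF10AT1 clone too. Of 13 other tested genes for collagen modification and folding, 7 rose and none fell, and 10 passed with the replicate block. P3H3, of the prolyl 3-hydroxylase family and known to work together with PLOD1, was at 0 to 4.71 normalized counts in the controls and 593 to 813 in the clone. It reached the mean needed for testing through the clone alone and so had to differ, which leaves 6 genes that rose. FKBP10 was at 665 to 735 in the controls and rose, with 9185 to 11146 in the clone (log2 change 3.87, adjusted p = 4.8e-05), and P3H1, a prolyl 3-hydroxylase, by a log2 change of 2.76 (adjusted p = 0.0024). P4HB, the beta subunit that both P4HA chains need, had 14757 ± 3624 and 31522 ± 5668 (log2 change 1.11, adjusted p = 0.0513). Among 13 tested collagen and elastic fibre genes 8 rose and COL17A1 fell (9 passed with the block), and of the 8 that rose 3 had control means under 10 and were tested because of their level in the clone. COL6A2, a chain of collagen type VI, was listed at 0 in all 3 controls and at 934 to 1258 in the clone, and COL3A1, a fibril collagen, was at 0 to 2.25 and 385 to 1208. COL17A1, a collagen of epithelial hemidesmosomes, was at 10015 to 24164 in the controls and at 60.4 to 80.4 in the clone (adjusted p = 2.25e-05).

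Of 9 processing and scaffold genes 2 rose and PCOLCE fell, as many as with the block (log2 change -1.76, adjusted p = 0.0259). FN1, the matrix protein fibronectin, which binds LOX, was at 65.1 to 81.9 in the controls and rose, with 55947 to 134507 in the clone (adjusted p = 1.87e-05). BMP1, which cleaves procollagen and the LOX propeptide, rose by a log2 change of 1.15 (adjusted p = 0.0196). Of 20 hypoxia targets ADM rose (1.82, adjusted p = 0.0277), and EGLN3 (-4.84, adjusted p = 0.00521) and HK2 (-2.10, adjusted p = 0.0231) fell, while 7 passed with the replicate block. Their median log2 change was -0.50. Epithelial markers moved with LOXL2 and PLOD1: 8 of 12 fell and none rose, with 11 passing under the block and CDH1, the epithelial cadherin, at 2105 to 6138 in the controls and 11.6 to 79.2 in the clone. The summed level of the 12 markers was 142979 to 171107 in the controls and 65937 to 185861 in the clone. Of 6 tested fibroblast markers 2 passed as higher, both with control means under 10, THY1 (at 0.87 to 1.91 in the controls and 1199.5 to 2557 in the clone) and COL3A1, and the sum over the 9 listed with values was 469.6 to 740.0 and 2816 to 4584. The 1 endothelial and 2 immune markers tested did not pass, and both immune markers did with the block. Their part in the change of LOXL2 and PLOD1 was not tested.

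**Figure D4:**
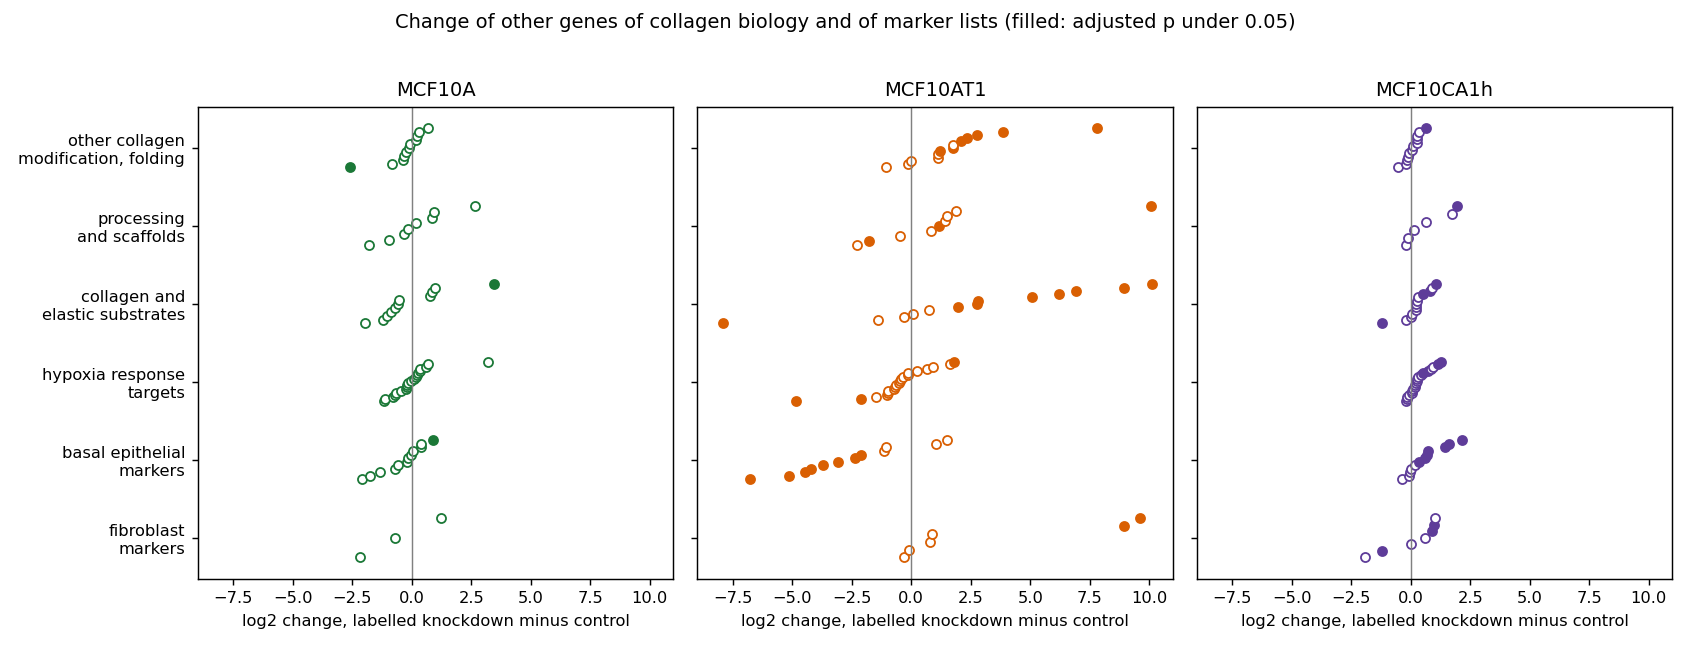
Log2 change (labelled knockdown minus control) of the tested genes of 6 lists in each line, 1 point per gene, filled where the adjusted p was under 0.05. In MCF10AT1 7 of 13 collagen modification genes and 8 of 13 collagen and elastic fibre genes passed as higher (1 and 3 of them with control means under 10) and 8 of 12 epithelial markers fell, and in MCF10CA1h the filled points lie between -1.22 (COL3A1) and 2.15 (KRT14).

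In the MCF10CA1h clone 4 of the 9 tested genes rose, LOXL2, PLOD2, P4HA2 and PLOD3, and none fell, where 12.8% of all tested genes passed, 7.91% as higher. LOXL2 had 402, 322 and 299 normalized counts in control replicates a, b and c and 1028, 1165 and 1205 in the labelled knockdown. The clone was above all controls, and the libraries of each group lay close together. LOXL2 rose from 341 ± 54.1 to 1133 ± 93.0 (SD, n = 3), a log2 change of 1.74, 95% interval 1.42 to 2.05, adjusted p = 7.02e-05. The call stayed with each library left out (log2 change 1.65 to 1.86). ENTPD4 had a log2 change of 0.10 (adjusted p = 0.629).

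PLOD2 had 585, 583 and 455 in the MCF10CA1h control and 886, 1130.2 and 971 in the clone. Its groups were well apart, and the mean went from 541 ± 74.5 to 996 ± 124 (log2 change 0.88, standard error 0.14, adjusted p = 0.00346). P4HA2 had 2015, 1773 and 1884 and 2604, 3061 and 2681, also without overlap (log2 change 0.56, 95% interval 0.33 to 0.78, adjusted p = 0.00632). PLOD3, at chr7:101205977-101218420, had 3847, 3599.7 and 3829.9 and 4602, 5432 and 4426, and here the groups were closer. The log2 change of PLOD3 was 0.35, 95% interval 0.13 to 0.58, adjusted p = 0.0437. This call was lost when any library other than replicate c of the clone was left out (adjusted p 0.0479 to 0.14 over the 6), and with all 18 libraries fitted together PLOD3, PLOD2 and P4HA2 had an adjusted p of 0.561, 0.579 and 0.395. PLOD3 shares exon sequence with ZNHIT1 on the opposite strand, whose log2 change was 0.23 (adjusted p = 0.252).

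LOX had 1134, 1071 and 831 in the MCF10CA1h control and 1603, 1259 and 1142 in the clone, and P4HA1, at chr10:73007217-73096974, had 1297, 1271 and 1298 and 1508, 1542 and 1429.5. In both genes every library of the clone was above every control, by little. Neither passed the test (log2 change 0.40, 95% interval 0.05 to 0.75, adjusted p = 0.13 for LOX, and 0.21, 95% interval 0.00 to 0.42, adjusted p = 0.17 for P4HA1). Groups did not overlap for 6 of the 9 genes, where this was so for 32.7% of all tested genes. LOXL1, with 309, 282 and 316 in the control and 298, 264 and 307 in the clone, had a log2 change of -0.06 (95% interval -0.38 to 0.25). LOXL3, with 255, 194 and 181 in the clone, had one of 0.34 (-0.14 to 0.81), and its groups overlapped. PLOD1 had 3708, 3328 and 3919 in the control and 3788, 4055 and 3791 in the clone and a log2 change of 0.09. The 95% interval of PLOD1, -0.12 to 0.30, lay below the change in MCF10AT1. The median log2 change of the 9 genes was 0.35, beside -0.019 for all genes tested.

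Among the other genes of the pathway in MCF10CA1h, P4HB rose as 1 of 12 tested genes for modification and folding, from 18443 ± 1067 to 29052 ± 3055 (log2 change 0.65, adjusted p = 0.00256), and none fell. FN1 rose as 1 of 6 processing and scaffold genes, by a log2 change of 1.92 (adjusted p = 7.99e-05). Of 13 collagen and elastic fibre genes 3 rose, with the largest change in COL6A1 (1.08, adjusted p = 0.000275) and COL17A1 (0.82, adjusted p = 0.000637), and COL3A1 fell (-1.22, adjusted p = 0.0343). Hypoxia targets rose in 4 of 20 cases and fell in none, with ANGPTL4 at 1.27 (adjusted p = 0.000249), NDRG1 at 1.14 (0.00819) and ADM at 0.71 (0.0115) on the log2 scale. Their median log2 change was 0.23. Epithelial markers here rose in 7 of 12 cases, with log2 changes of 2.15 for KRT14 and 1.43 for LAMB3, and their summed level was 354038 to 364130.0 in the controls and 489635 to 566294 in the clone. Of 7 tested fibroblast markers FAP and DCN rose and COL3A1 fell, with sums of 1478 to 1818 and 2734 to 2821. PECAM1 and CD14 fell and CSF1R rose among 3 endothelial and 3 immune markers tested (log2 changes -1.20, -1.14 and 1.49). Endothelial and immune markers summed to at most 867 and 2362 in any library of the series, and their part, like that of the other markers, was not tested.

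Whether the lines responded differently was tested as the difference of their changes, in 1 fit of the 18 libraries. That fit gave each gene 1 spread for all groups, although libraries of a group differed less in MCF10CA1h. Root mean square differences reached 1.58 in the MCF10AT1 control and 0.642 in the MCF10CA1h control (log2 scale). The p-values of differences that involve MCF10AT1 can therefore be too small. LOXL2 differed between MCF10AT1 and MCF10A by 4.19, standard error 0.59, adjusted p = 7.58e-05 and between MCF10CA1h and MCF10A by 3.06, standard error 0.59, adjusted p = 0.00575 on the log2 scale. Between MCF10CA1h and MCF10AT1 the difference of LOXL2 was -1.13, 95% interval -2.38 to 0.12, adjusted p = 0.214. PLOD1 changed more in MCF10AT1 than in MCF10A (2.17, standard error 0.26, adjusted p = 1.68e-05) and less in MCF10CA1h than in MCF10AT1 (-1.58, standard error 0.26, adjusted p = 0.000417). P4HA2 had a higher change in MCF10CA1h than in MCF10AT1, by 1.29, standard error 0.33, adjusted p = 0.012. For PLOD2 the difference between MCF10AT1 and MCF10A was 1.51, 95% interval 0.12 to 2.91, adjusted p = 0.118, and it passed with the replicate block (adjusted p = 0.0482), where 28.9% of all genes did. Of the 9 genes 2, 1 and 2 passed in the 3 comparisons of changes (MCF10AT1 with MCF10A, MCF10CA1h with MCF10A, MCF10CA1h with MCF10AT1), where 21.6%, 5.34% and 18.2% of all tested genes did. The 3 comparisons share libraries.

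By group mean, LOXL2 was highest in the MCF10AT1 clone and then in the MCF10CA1h clone, and the range of each of these groups stood apart from the next. Below them came the MCF10A, MCF10AT1 and MCF10CA1h controls and the MCF10A clone, where each group overlapped its neighbour. PLOD1 was highest in the MCF10AT1 clone, apart from all other groups. The MCF10AT1 and MCF10A controls followed and overlapped each other. The MCF10CA1h clone came next without reaching the MCF10A control, and then the MCF10CA1h control and the MCF10A clone, where neighbours again overlapped. Over the 6 group means LOXL2 had the largest range of the 10 genes (3.70 on the log2 scale), followed by LOXL3 (3.50) and PLOD1 (2.54), and P4HA1 had the smallest (0.56).

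The makeup of each family was compared from levels per kilobase. LOXL2 held 18.5% ± 10.8 of the lysyl oxidase total in the MCF10AT1 control and 50.3% ± 5.16 in the clone. In MCF10CA1h its share was 19.6% ± 1.57 and 40.8% ± 5.07, and in MCF10A 22.0% ± 2.75 and 8.97% ± 5.09 (SD, n = 3). The ratio of LOXL2 to LOX per kilobase was 0.412 ± 0.0981 in the MCF10A control and 0.126 ± 0.0753 in its clone, 0.828 ± 0.136 and 4.28 ± 1.37 in MCF10AT1, and 0.461 ± 0.0445 and 1.19 ± 0.289 in MCF10CA1h. In each line the 3 ratios of the clone lay outside the range of the controls, below it in MCF10A and above it in the other lines. The summed lysyl oxidase level per kilobase was 609.6 ± 109 in the MCF10AT1 control and 1482 ± 232 in the clone, and 466 ± 45.7 and 749 ± 34.8 in MCF10CA1h, while in MCF10A it was 667 ± 203 and 703 ± 121.

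PLOD1 held 53.0% ± 2.48 of the lysyl hydroxylase total in the MCF10AT1 control and 76.5% ± 2.31 in the clone, where PLOD3 went from 43.7% ± 2.02 to 20.9% ± 1.35 although its own level lay within the control range. In MCF10CA1h the share of PLOD2 was 5.36% ± 0.912 in the control and 8.09% ± 0.491 in the clone. P4HA2 made up 46.9% ± 1.36 of both alpha subunits in the MCF10CA1h control and 52.9% ± 1.75 in the clone, and was above P4HA1 in all 3 libraries of the clone. The summed level of both subunits was 886 ± 31.3 and 1156 ± 68.9 there, against 1063 ± 115 and 795 ± 123 in MCF10AT1. Shares are given as descriptions, without a test.

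**Figure D5:**
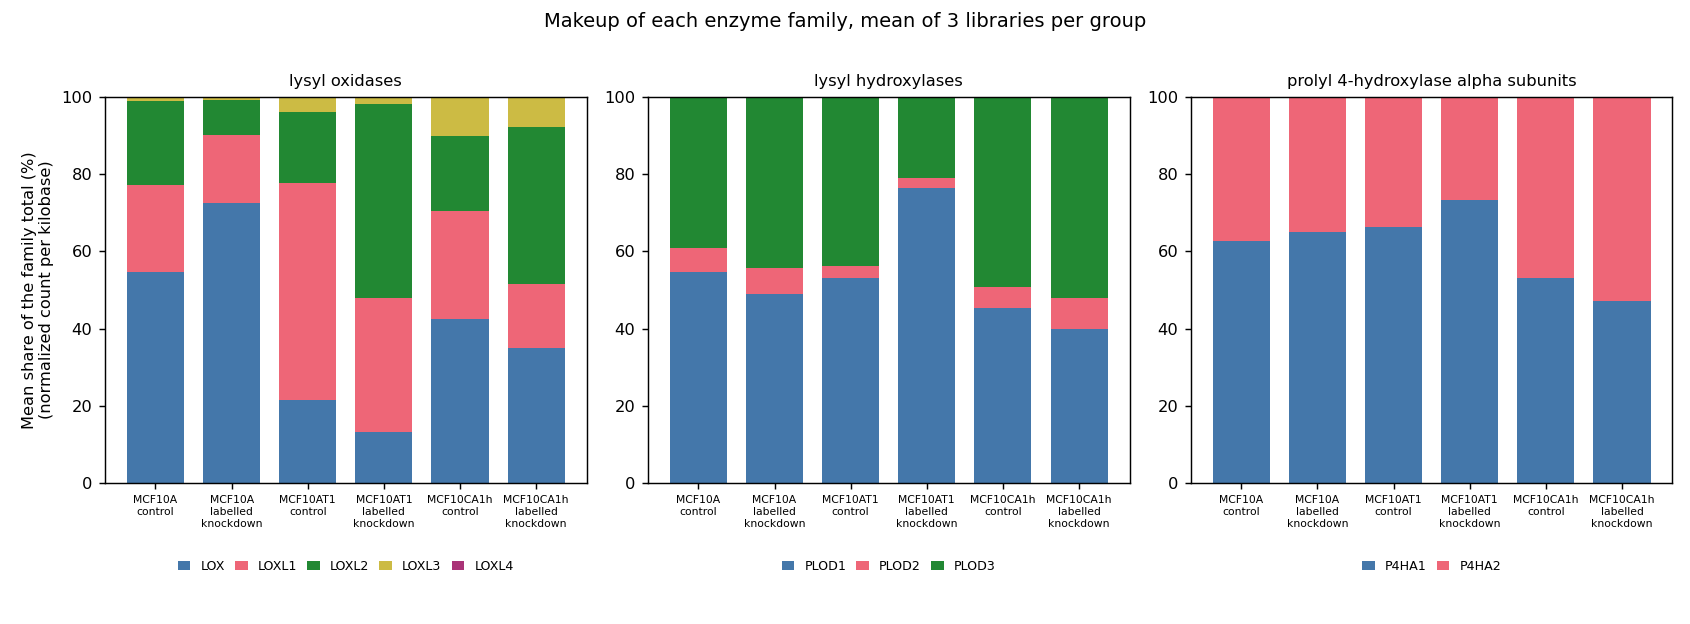
Mean share of each gene in its family total, from normalized counts per kilobase, in the 6 groups (bars sum to 100%, n = 3 libraries per group, no error drawn). The green LOXL2 segment covers 50.3% in the MCF10AT1 clone and 40.8% in the MCF10CA1h clone, and the blue PLOD1 segment 76.5% in the MCF10AT1 clone.

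The genes whose pattern over the 18 libraries was most like that of the 3 genes with the widest range were looked up among 12460 genes with a mean of at least 50. Likeness was measured as the root mean square difference of log2 values after each gene was centred on its mean. Nearest to LOXL2 were GLRX (0.66), FADS3 (0.68) and CDC42EP2 (0.73), where LOXL2 itself varied by 1.32 around its mean. Nearest to LOXL3 were BCL2L12 (0.40), SFXN2 (0.45) and MMAB (0.46), with a variation of 1.38 for LOXL3. PLOD1, which varied by 0.89, had closer neighbours, FHL3 (0.25), TGFB1 (0.25) and MAN1B1 (0.27). All points come from the same 18 libraries, and the distances are descriptions.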

How the data were processed

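Libraries of 3 cell lines, each with a control and a METTL3 CRISPR arm and replicates a, b and c, were grouped by the genotype label. Per the protocol, the RNA was ribosomal RNA-depleted and made into stranded libraries, while the labels name polyA RNA. The authors pseudo-aligned reads with kallisto 0.46.1 (build named: hg38), summarised them with tximport and deposited DESeq2 1.26.0 normalized counts (R 4.1.1), a signal scaled between libraries and not per length. Rows without values (24646) were not used, and for 294 IDs the symbol was given to another ID. Only 15.3% to 38.9% of low values per library were whole multiples of the commonest low value (tolerance 0.02), so reads were not recovered, the depth is unknown and no count test was run. With R 4.3.3 and limma 3.58.1, lmFit and eBayes with trend were run on log2(normalized count + 1) for genes whose mean over the fitted libraries reached 10, with Benjamini-Hochberg adjustment over all of them, two-sided, and a threshold of 0.05. Changes are on that scale, which understates low genes. Each line was fitted alone (6 libraries), controls together (9) and differences of changes over all 18. The script was tested on simulated data. Values per kilobase used the canonical GENCODE v44 transcript.

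Replicate letters were checked for pairing: deviations from group means of control and clone libraries with the same letter correlated across 15897 genes at 0.22, 0.20 and 0.12 in MCF10A and 0.11, 0.29 and 0.48 in MCF10AT1, and at -0.011, 0.017 and 0.046 in MCF10CA1h. Libraries of different letters correlated at -0.17 to 0.0087 in MCF10A, -0.41 to 0.25 in MCF10AT1 and -0.12 to 0.10 in MCF10CA1h. In MCF10AT1 the pairing is less clear, since control replicate b with clone replicate a (0.25) exceeded the same-letter value of replicate a (0.11). The letters were thus taken to pair libraries in MCF10A and MCF10AT1 and not in MCF10CA1h. The main fits did not use this pairing, and fits with the letter as a block are given beside them. With the block 0 of the 9 genes passed in MCF10A and 3 in MCF10AT1, in place of 0 and 2. The shares of all tested genes were then 7.6% and 24.5%, in place of 2.65% and 13%. The 10 genes and the gene lists were chosen with earlier results of these data known. Named genes were the 10, METTL3, up to 3 passing genes with the largest change per list, and the 3 nearest genes in the likeness search. P4HB in MCF10AT1, the defining markers and genes sharing exons with the 10 or with METTL3 were added for their role or position, after values were seen. A gene that this rule names is not reported here.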

Additional observations from a re-analysis of the deposited data

Results flagged for a closer look

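For 3 of the genes the change in the labelled knockdown differed between lines by a direct test (limma, difference of changes over 18 libraries, Benjamini-Hochberg adjustment). Of the 9 tested genes 2 passed between MCF10AT1 and MCF10A, where 21.6% of all tested genes did. Between MCF10CA1h and MCF10A 1 passed (5.34% of all), and between MCF10CA1h and MCF10AT1 2 passed (18.2% of all). The difference for LOXL2 was 4.19 on the log2 scale between MCF10AT1 and MCF10A (95% interval 2.94 to 5.45, adjusted p = 7.58e-05) and 3.06 between MCF10CA1h and MCF10A (1.81 to 4.31, adjusted p = 0.00575). In MCF10A the change itself, -1.32, did not pass the test. For PLOD1 the difference was 2.17 between MCF10AT1 and MCF10A (1.61 to 2.72, adjusted p = 1.68e-05) and -1.58 between MCF10CA1h and MCF10AT1 (-2.13 to -1.02, adjusted p = 0.000417). For P4HA2 it was 1.29 between MCF10CA1h and MCF10AT1 (standard error 0.33, adjusted p = 0.012), where the means were 1891 and 2782 normalized counts in MCF10CA1h and 1621 and 937 in MCF10AT1. The fit used 1 spread per gene for all lines, so p-values of differences that involve MCF10AT1 can be too small. The 3 comparisons share libraries, and each clone is a single line, so a difference between lines cannot be told apart from a difference between clones.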

How the results depend on the processing

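The rise of LOXL2 in MCF10AT1 and MCF10CA1h kept its direction and its call under all 9 other settings (pseudocount, filter, variance trend, scaling, replicate block, joint fit) and with each library left out. Over 16 log2 values that passed the test, 127 recomputed values under other settings stayed past the threshold and 12, of 5 results, did not. With a library left out 109 stayed and 17 did not, of PLOD1 in MCF10AT1, PLOD3 in MCF10CA1h, and LOXL1 and PLOD1 between MCF10CA1h and MCF10AT1 controls. No value that passed changed sign. With all 18 libraries in the fit, 4 genes in place of 2 passed in MCF10AT1, with PLOD2 added as higher and P4HA2 as lower. In that fit 1 in place of 4 passed in MCF10CA1h (LOXL2), and 4 in place of 2 between MCF10AT1 and MCF10A controls. The share of all genes that passed moved from 13% to 32.4%, from 12.8% to 1.56% and from 28.1% to 38.3%. PLOD3 in MCF10CA1h also missed the threshold without a filter (adjusted p = 0.0760), without the variance trend (0.135), with equal library sums (0.0516) and with the replicate block (0.0739), under which 3 genes passed there and 12.4% of all. A log2 change of at least 1 left 1 gene in MCF10CA1h and 1 between MCF10CA1h and MCF10AT1 controls. An adjusted p under 0.01 left 1 between the changes in MCF10CA1h and MCF10AT1, 1 between MCF10AT1 and MCF10A controls and 0 between MCF10CA1h and MCF10AT1 controls. The latter count was also 0 without a filter and without the trend, and 1 with the replicate block. For controls that block joins libraries of different lines by letter. Same-letter deviations of the MCF10AT1 and MCF10CA1h controls correlated at 0.053, -0.24 and -0.27, so no pairing was seen there. Between MCF10CA1h and MCF10A controls the count was 2 with a pseudocount of 5 and with a mean of at least 50 (LOX added).

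Leaving out libraries gave counts of 1 to 2 in MCF10AT1, 2 to 7 between MCF10AT1 and MCF10A controls and 0 to 4 between MCF10CA1h and MCF10AT1 controls, where 6.35% to 15.2%, 10.6% to 52.1% and 10.2% to 35.8% of all genes passed. Without MCF10AT1 control replicate b the last count was 3, of LOXL3, P4HA1 and P4HA2. The cause of these differences was not tested. Some values that had not passed changed sign. With equal library sums these were P4HA1 in MCF10A (0.043), LOXL3 and PLOD3 in MCF10AT1 (-0.080 and -0.090), and LOX and PLOD3 for the difference of changes between MCF10AT1 and MCF10A (-0.22 and -0.015). That scaling moved the median of all genes from 0.021 to -0.15 in MCF10AT1 and gave 50.2% in place of 62.0% of calls as higher in MCF10CA1h, and 39.6% in place of 51.6% for the difference between MCF10AT1 and MCF10A. With a library left out, log2 values crossed 0 in MCF10A for LOXL1 (-0.62 to 0.12) and P4HA1 (-0.19 to 0.13), in MCF10AT1 for LOXL3 (-0.13 to 0.47) and PLOD3 (-0.16 to 0.25) and in MCF10CA1h for LOXL1 (-0.11 to 0.00040). They also did for the difference of MCF10AT1 from MCF10A in LOX (-0.47 to 0.36), of MCF10CA1h from MCF10A in LOX (-0.32 to 0.028) and LOXL1 (-0.19 to 0.56), and of MCF10CA1h from MCF10AT1 in LOX (-0.49 to 0.35), LOXL3 (-0.13 to 0.47) and PLOD2 (-1.01 to 0.38). Between controls this held for P4HA1 (-0.038 to 0.32) and P4HA2 (-0.45 to 0.078) in MCF10AT1 against MCF10A, LOXL1 in MCF10CA1h against MCF10A (-0.52 to 0.22), and LOXL2 (-0.43 to 0.31) and PLOD2 (-0.055 to 1.34) in MCF10CA1h against MCF10AT1. Shares not divided by length moved by more than the spread between replicates in 25 of 60 group means, and P4HA2 then held 59.4% in place of 46.9% of both subunits in the MCF10CA1h control. Depth is unknown, so no limit from counting can be set on LOXL3 or LOXL4.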
